A study of Homo sapiens with 14 samples.

Results

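Transcripts of 9 secreted cytokine genes, *CSF3*, *CSF2*, *CSF1*, *IL6*, *IL11*, *LIF*, *IL1A*, *IL1B* and *IL32*, were followed in lung adenocarcinoma (LUAD) cells treated with AMG900, a small molecule that inhibits the aurora kinases. The genes were taken by symbol from the 26732 genes listed for both cell lines. The group was chosen around *CSF3* with the changes in AMG900-treated A549 cells in view, so its values in that contrast are given as a description without a test. RNA sequencing was done on A549 and H1792, both established human LUAD lines, 48 h after addition of 0.1 µM AMG900 or of the solvent DMSO alone. There were 4 DMSO and 4 AMG900 libraries of A549 (the protocol in the labels gives 3 replicates per treatment) and 3 DMSO and 3 AMG900 libraries of H1792. Cells of both lines received serum-containing medium, DMEM for A549 and RPMI 1640 for H1792, and every library came from one of these 2 lines, so medium, line and sequencing depth go together. Nothing in the labels names separate passages or days for the replicates, and p-values therefore measure the spread between these libraries, which may be technical.

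These cytokines are small proteins that cells release to act on their neighbours and on leukocytes. *CSF3* (G-CSF), *CSF2* (GM-CSF) and *CSF1* (M-CSF) encode growth factors for granulocytes and macrophages. IL6, IL11 and LIF signal through the shared receptor chain gp130 to JAK kinases and STAT3, while IL1A and IL1B act through the IL1 receptor and MYD88 and drive NF-kB and AP-1, which in turn act on many cytokine promoters. Many cytokine mRNAs also carry AU-rich elements in the 3′ UTR, which are bound by proteins that shorten or lengthen the life of the transcript.

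Depth differed between the lines. Total counts on genes were between 4254644 and 18962883 per library in A549 and between 42760874 and 79902934 in H1792, and A549 DMSO replicate 1 was the shallowest library. Levels are given as CPM, the counts on a gene per 1000000 counts of the library, with library totals scaled by TMM factors over the 14 libraries. The epithelial keratins *KRT8* and *KRT18* were high in both lines, *CDH1* had at most 1.07 CPM in any H1792 library and *EPCAM* at most 0.542 CPM in any A549 library, and the lung lineage markers *NKX2-1* and *SFTPC* were at most 0.144 CPM in any library. Of the 6 leukocyte markers, *PTPRC*, *CD3E* and *LYZ* had at most 0.287 CPM in any library, while *CD68* and *CD14* were detected in all of them. The summed level of the 6 leukocyte markers was 60.1 to 86.9 CPM with DMSO and 163 to 179 CPM with AMG900 in A549, and 101 to 117 CPM and 173 to 199 CPM in H1792, nearly all of it from *CD68*. The 4 stromal and endothelial markers summed to 42.9 to 59.6 CPM in H1792 and to 5.76 CPM or less in A549. The part of these markers in the cytokine values was not tested. In such bulk samples, fewer cells that express a gene and less of its RNA per cell cannot be told apart.

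Sequences of the group are shown first, since the transcripts differ in the elements that bind these regulators. RefSeq promoter windows of 300 bases (250 before and 50 from the transcription start, build GRCh38.p14) were found for 6 of the 9 genes. *CSF3*, *CSF1* and *LIF* had no entry. An NF-kB motif (GGG, any 3 bases, then TTCC) was found in 2 of the 6 genes and an AP-1 motif (TGANTCA) in 2, on either strand and without overlap between matches, and the windows of the other two, *CSF2* and *IL1B*, held neither. Of all 35116 windows in the table, 6.52% held the NF-kB motif, 7.71% the AP-1 motif and 11.5% a TATAAA box, which was found in *IL1A* alone. The 4 windows with a NF-kB or AP-1 match are given here on the strand of the gene, with every motif match in capitals.
*IL6* (chr7:22726950-22727249, plus strand; NF-kB at -73 to -64): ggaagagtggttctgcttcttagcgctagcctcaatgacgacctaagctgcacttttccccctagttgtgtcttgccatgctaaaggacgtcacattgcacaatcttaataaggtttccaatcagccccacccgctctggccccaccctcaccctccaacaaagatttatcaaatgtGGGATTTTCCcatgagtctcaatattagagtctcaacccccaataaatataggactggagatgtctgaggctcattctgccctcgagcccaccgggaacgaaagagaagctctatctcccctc
*IL32* (chr16:3065153-3065452, plus strand; NF-kB at -99 to -90): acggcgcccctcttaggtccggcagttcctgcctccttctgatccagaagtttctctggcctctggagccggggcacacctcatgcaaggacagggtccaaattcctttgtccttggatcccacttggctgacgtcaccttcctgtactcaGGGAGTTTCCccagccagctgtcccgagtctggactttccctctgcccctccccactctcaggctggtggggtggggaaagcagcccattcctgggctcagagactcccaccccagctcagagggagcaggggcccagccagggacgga
*IL11* (chr19:55370414-55370713, minus strand; AP-1 at -96 to -90): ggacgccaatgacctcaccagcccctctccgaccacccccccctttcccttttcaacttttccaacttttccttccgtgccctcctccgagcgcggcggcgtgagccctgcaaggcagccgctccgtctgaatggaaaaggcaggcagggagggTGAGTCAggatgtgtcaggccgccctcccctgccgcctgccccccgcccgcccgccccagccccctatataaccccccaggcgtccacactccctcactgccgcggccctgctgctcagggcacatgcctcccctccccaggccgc
*IL1A* (chr2:112784444-112784743, minus strand; AP-1 at -12 to -6 and at 39 to 45, TATAAA at -239 to -234): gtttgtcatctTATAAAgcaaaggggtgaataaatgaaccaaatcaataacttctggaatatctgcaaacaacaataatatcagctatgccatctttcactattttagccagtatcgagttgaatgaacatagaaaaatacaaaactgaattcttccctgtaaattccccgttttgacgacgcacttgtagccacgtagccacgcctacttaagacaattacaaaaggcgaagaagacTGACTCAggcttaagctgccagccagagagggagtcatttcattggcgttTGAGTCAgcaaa
Positions count from the transcription start, the base before it being -1. *IL1A* has a further window that overlaps this one and holds the same AP-1 matches, and *IL32* a further window without a match. A match is a description of the letters only.

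In the 3′ UTR of the transcript models of GRCh37, the pentamer ATTTA, the core of AU-rich elements, occurred in 8 of the 9 genes and was absent from *IL32*. Across 18738 genes with a 3′ UTR, 69.1% held it. The longer nonamer TTATTTATT occurred in 4 of the 9, *IL11* (6 copies), *CSF2* (3), *IL1B* (2) and *LIF* (2), and in 8.64% of all genes. Per kilobase of 3′ UTR the pentamer was densest in *CSF2*, with 25.2, followed by *IL6* with 14.1, *IL1B* with 9.84 and *CSF3* with 8.20, while the median gene had 1.58. The 30 bases with the most pentamers are shown for 4 genes, on the strand of the transcript and with ATTTA in capitals.
*CSF2* (chr5:131411765-131411794, plus strand): ttttaaaatATTTATTTATTTATTTATTTA
*CSF3* (chr17:38173228-38173257, plus strand): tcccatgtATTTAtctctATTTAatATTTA
*IL1B* (chr2:113587580-113587609, minus strand): tgagcaaccgcttccctATTTATTTATTTA
*IL11* (chr19:55877319-55877348, minus strand): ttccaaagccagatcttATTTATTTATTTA
The windows of *CSF2*, *IL1B* and *IL11* end in runs of overlapping pentamers, and that of *CSF3* holds separate copies.

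*CSF3*, the granulocyte growth factor (ENSG00000108342, chr17:38171614-38174066 on GRCh37, plus strand), was nearly absent from untreated A549 cells. The 4 DMSO libraries held 2, 9, 13 and 18 counts, or 0.443, 0.774, 0.937 and 1.04 CPM. The 4 AMG900 libraries held 157, 220, 267 and 246 counts, or 14.8, 15.6, 14.5 and 16.3 CPM. The lowest treated library was thus far above the highest control library, and the log2 fold change was 4.04 (SE 0.20), a 16.5-fold higher level that ranked 11th from the top among 13174 genes tested. In H1792 the same gene had 7.81, 6.76 and 7.12 CPM with DMSO and 25.2, 24.7 and 24.1 CPM with AMG900. The groups did not overlap, and *CSF3* rose 3.40-fold (log2 fold change 1.76, SE 0.08, adjusted p = 4.93e-07 from edgeR's quasi-likelihood test, adjusted after Benjamini and Hochberg, as is every adjusted p given here). The gain in CPM was 14.5 (SE 0.44) in A549 and 17.4 (SE 0.43) in H1792, so the line with the smaller fold change had the larger gain.

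*CSF2*, the growth factor for granulocytes and macrophages (chr5:131409482-131411863, plus strand), was as scarce as *CSF3* in A549 with DMSO but among the most abundant cytokine transcripts of H1792. In A549 the DMSO libraries had 2, 10, 13 and 18 counts and the AMG900 libraries 12, 42, 63 and 36, or 0.443, 0.860, 0.937 and 1.04 CPM against 1.13, 2.98, 3.42 and 2.39 CPM. AMG900 replicate 1 lay only just above the highest DMSO library, and the log2 fold change of 1.43 had the wide SE of 0.38. In H1792 the levels were 212, 185 and 197 CPM with DMSO and 453, 433 and 419.9 CPM with AMG900. *CSF2* rose 2.19-fold there (log2 fold change 1.13, SE 0.06, adjusted p = 1.19e-06).

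*CSF1*, the macrophage growth factor (chr1:110452864-110473614, plus strand), was well counted in every library. Its level in A549 was 154, 154, 166 and 165 CPM with DMSO and 274, 278, 292 and 309.5 CPM with AMG900, with a log2 fold change of 0.77 (SE 0.06). In H1792 it had 86.4, 84.5 and 85.0 CPM with DMSO and 113, 109 and 107 CPM with AMG900. That is a 1.28-fold rise (log2 fold change 0.36, SE 0.05, adjusted p = 0.000265), which did not hold with a correction for the GC content of the transcripts (log2 fold change 0.067, adjusted p = 0.294).

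**Figure D1:**
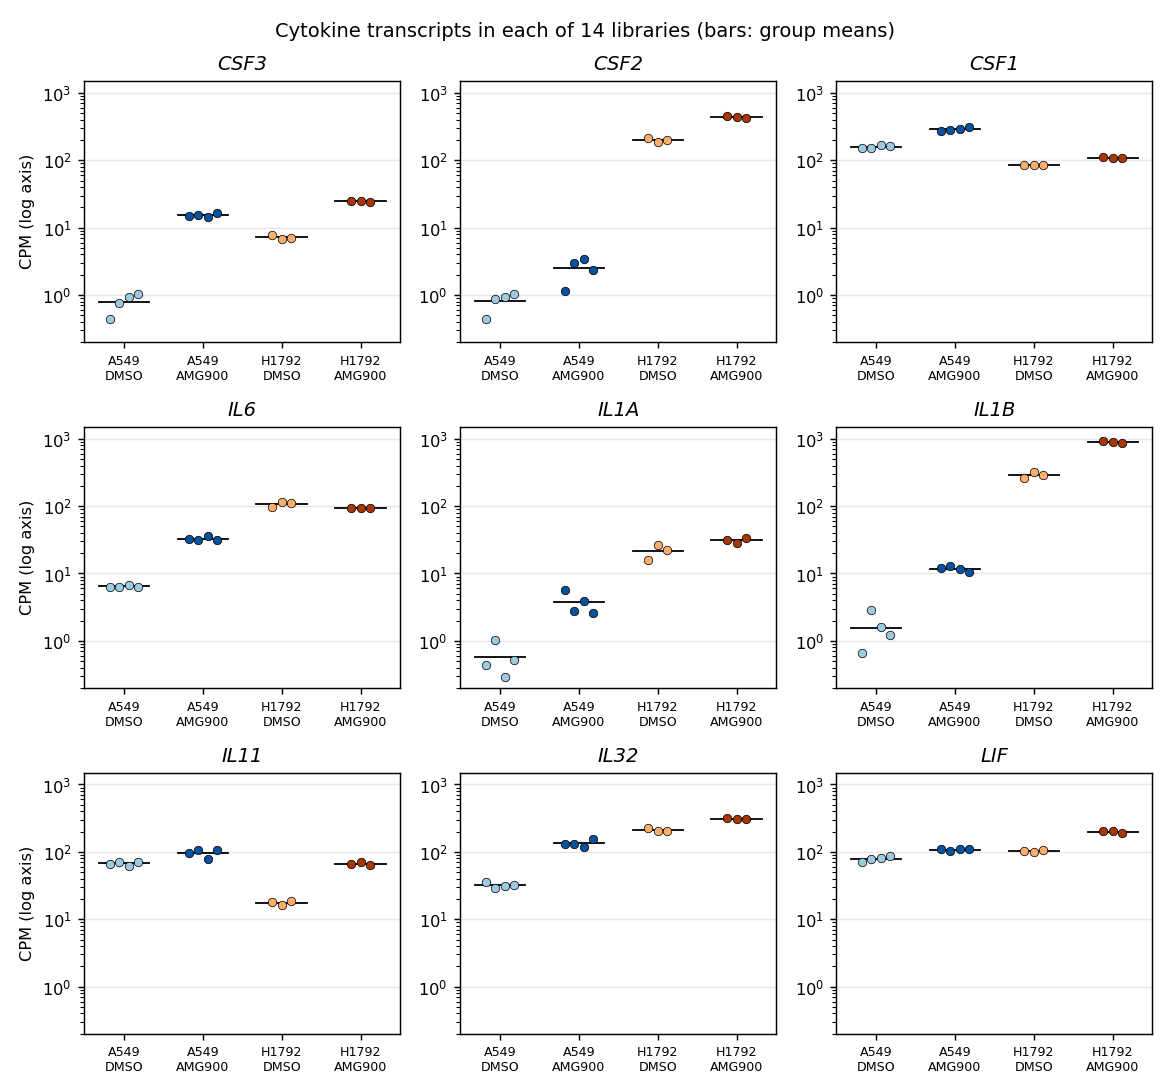
Level of each cytokine transcript in each library, in CPM on a log axis, by cell line and treatment; 1 point is 1 library and the bar is the group mean. *CSF3* in A549 goes from a mean of 0.798 CPM with DMSO to 15.3 CPM with AMG900, and *IL6* is the only gene whose AMG900 points lie above DMSO in A549 and below DMSO in H1792.

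*IL6*, which signals through gp130 to STAT3 (chr7:22765503-22771621, plus strand), moved in opposite directions in the lines. In A549 it had 6.21, 6.37, 6.85 and 6.39 CPM with DMSO and 32.7, 30.9, 35.5 and 31.7 CPM with AMG900, a log2 fold change of 2.26 (SE 0.12). In H1792 the level was 97.0, 116 and 112 CPM with DMSO and 93.9, 94.4 and 94.1 CPM with AMG900. Every treated H1792 library was below every control library, but the difference of -0.20 on the log2 scale (SE 0.07, adjusted p = 0.0307) did not pass the threshold of 0.01. It passed when DMSO replicate 1, the control with the lowest level, was left out (-0.30, adjusted p = 5.42e-05), and the adjusted p was between 5.42e-05 and 0.112 over all alternatives. *IL6* shares 428 exon bases with the antisense gene *IL6-AS1* and 46 with *STEAP1B*, and whether the counting used strand is not given in the sources used here.

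*IL11* and *LIF*, the other gp130 cytokines, had their larger change in H1792. *IL11* (chr19:55875750-55881831, minus strand) had 67.2, 71.9, 61.9 and 70.2 CPM in A549 DMSO and 95.5, 107, 77.5 and 105 CPM in A549 AMG900, with AMG900 replicate 3 closest to the controls (log2 fold change 0.42, SE 0.10). In H1792 it had 17.9, 16.3 and 18.8 CPM with DMSO and 66.0, 70.9 and 64.2 CPM with AMG900, a 3.78-fold rise (log2 fold change 1.92, SE 0.07, adjusted p = 2.14e-07). This was the largest change of the 9 cytokines in H1792, and the AMG900 libraries of H1792 were then within the range of the A549 DMSO libraries. *LIF* (chr22:30636442-30642748, minus strand) had 70.5, 77.4, 80.4 and 85.8 CPM with DMSO and 109, 102, 111 and 109.8 CPM with AMG900 in A549 (log2 fold change 0.38, SE 0.08). In H1792 it went from 102, 99.2 and 105 CPM to 204, 202 and 191 CPM, a 1.95-fold rise (log2 fold change 0.96, SE 0.05, adjusted p = 1.42e-06). *LIF* shares 86 and 83 exon bases with the antisense genes *LIF-AS1* and *LIF-AS2*.

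*IL1A* and *IL1B* encode the IL1 receptor agonists and lie 45.3 kb apart on chromosome 2 (chr2:113531502-113542070 and chr2:113587328-113594393, both minus strand). *IL1B* was rare in A549 controls, with 3, 33, 22 and 21 counts (0.665, 2.84, 1.59 and 1.21 CPM), and had 126, 182, 215 and 159 counts with AMG900 (11.9, 12.9, 11.7 and 10.6 CPM). The log2 fold change was 2.73 (SE 0.27). In H1792 *IL1B* was the cytokine with the highest CPM, 260.5, 321 and 292 with DMSO and 919, 886 and 869.6 with AMG900, and it rose 3.05-fold (log2 fold change 1.61, SE 0.07, adjusted p = 4.23e-07). *IL1A* had 2, 12, 4 and 9 counts in A549 DMSO and 61, 39, 71 and 39 in A549 AMG900, or 0.443, 1.03, 0.288 and 0.518 CPM against 5.74, 2.77, 3.85 and 2.59 CPM, so its log2 fold change of 2.59 had the widest SE of the group, 0.42. In H1792 *IL1A* had 15.9, 26.3 and 22.5 CPM with DMSO and 31.1, 28.6 and 33.6 CPM with AMG900. All treated libraries were higher, with a log2 difference of 0.53 (SE 0.15, adjusted p = 0.0137) that missed the threshold. *IL1A* did pass it with the GC correction (0.96, adjusted p = 6.4e-05), without DMSO replicate 1 (0.32, adjusted p = 0.00472), without DMSO replicate 2 (0.69, adjusted p = 0.00153), as well as with DESeq2 (adjusted p = 0.00131), without a filter on low counts (adjusted p = 0.00258) and with a replicate block (adjusted p = 0.00677). It passed in 7 of 14 alternatives, with an adjusted p between 6.4e-05 and 0.0621.

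*IL32*, a cytokine that induces other inflammatory cytokines (chr16:3115298-3132193, plus strand), had 36.1, 29.6, 31.6 and 32.3 CPM in A549 DMSO and 129, 133, 117 and 156 CPM in A549 AMG900, a log2 fold change of 1.98 (SE 0.10). In H1792 the level was 226, 207 and 207 CPM with DMSO and 315, 309 and 305 CPM with AMG900. *IL32* rose 1.45-fold there (log2 fold change 0.53, SE 0.05, adjusted p = 2.86e-05). With the GC correction the rise in H1792 was smaller (0.25, adjusted p = 0.000407). *IL32* shares 129 exon bases with the small nuclear RNA gene *RNU1-125P* on the same strand.

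All 9 cytokines passed the filter on low counts in each line. In A549, *CSF3*, *CSF2*, *IL1A* and *IL1B* passed it only with the AMG900 libraries counted, as they had 2 to 33 counts per DMSO library. In A549 all 9 were called higher at a false discovery rate (FDR) of 0.01, where 17.2% of 13174 genes were higher and 35% changed in either direction, and in all 9 every AMG900 library was above every DMSO library, where 26% of genes were. The A549 contrast helped to choose the group, so nothing is read from these counts. *CSF2* was not called there once DMSO replicate 2, 3 or 4 or AMG900 replicate 2, 3 or 4 was left out, nor *IL11* without DMSO replicate 3, AMG900 replicate 2 or AMG900 replicate 4. The median log2 fold change of the group was 1.98 in A549, beside -0.0099 over all genes tested. In H1792, 7 of the 9 rose and none fell, where 16.2% of 15017 genes rose and 18.8% fell, 35.1% in all, and the median was 0.96 beside 0.0087 over all genes. *IL6* and *IL1A* were the members that did not pass. The AMG900 libraries were all higher for 8 members and all lower for *IL6* in H1792, where 30.3% and 29.3% of genes had such a pattern. Over all genes tested in both lines, 7.29% of 12625 were called higher in both, and nothing is read from the members' count in both lines, since A549 helped to choose them. The H1792 count is likewise a description. The cytokines were chosen with earlier results of these data known, and responses shared by the lines carry the choice over to H1792.

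**Figure D2:**
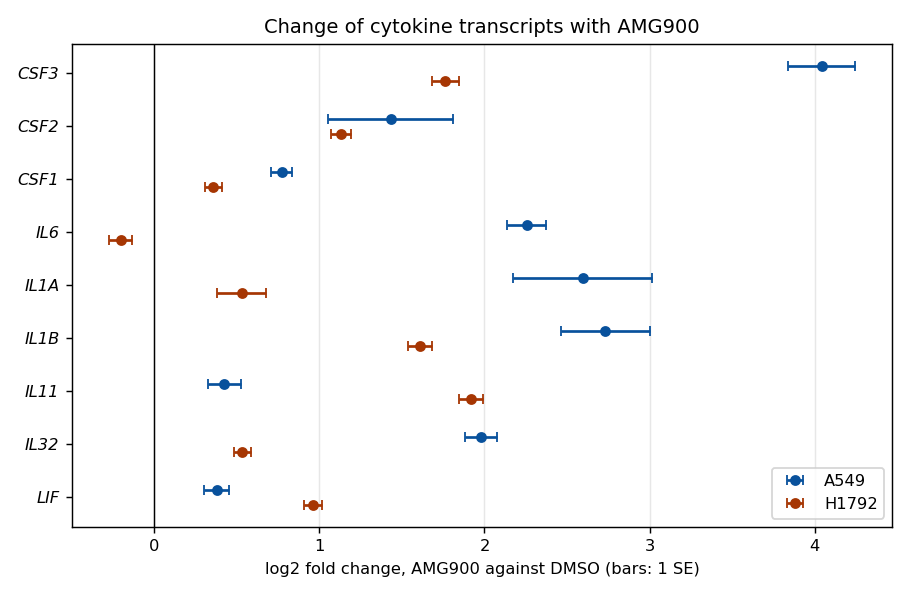
Log2 fold change of each cytokine, AMG900 against DMSO, with 1 SE, for A549 (blue) and H1792 (orange-brown). *CSF3* has the largest value in A549, 4.04, and *IL11* in H1792, 1.92, and the *IL6* value in H1792 is below 0.

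The size of the change differed between the lines for most of the genes. As a description, the H1792 log2 fold change minus the A549 one, from a fit over all 14 libraries, was -2.53 (SE 0.12) for *IL6*, -2.35 (SE 0.21) for *CSF3*, -2.14 (SE 0.44) for *IL1A*, -1.52 (SE 0.12) for *IL32*, -1.20 (SE 0.23) for *IL1B* and -0.49 (SE 0.09) for *CSF1*. It was above 0 for *IL11*, 1.42 (SE 0.14), and *LIF*, 0.51 (SE 0.10). For *CSF2* the difference of -0.38 (SE 0.31) was about as large as its error. Over all genes the median difference was -0.10, and 14.5% of 14769 genes had a difference at FDR 0.01. In CPM the gain was larger in H1792 than in A549 for *CSF3*, *CSF2*, *IL1A* and *IL1B*, whose fold change was the smaller one there, and the other 5 had the same order on both scales, *IL32* by less than its error. The gain of *IL1B* was 10.2 CPM (SE 0.67) in A549 and 600.0 CPM (SE 22.7) in H1792, that of *CSF2* 1.66 (SE 0.51) and 237 (SE 12.4), and that of *IL32* 101 (SE 8.14) and 96.2 (SE 6.82).

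Without the drug, the lines differed in every one of the 9 cytokines. H1792 DMSO libraries were compared with A549 DMSO libraries in the fit over all 14, where 34.2% of 14769 genes were higher in H1792 and 31.9% lower, 66.1% in all. Of the 9 cytokines 7 were higher in H1792 and 2 lower. The libraries of the lines did not overlap for any of the 9, where 36.3% of genes were higher and 32% lower without overlap. The difference was largest for *CSF2* (218-fold, log2 difference 7.77, SE 0.18, adjusted p = 4.52e-18) and *IL1B* (174-fold, 7.44, SE 0.16, adjusted p = 2.14e-18). *IL1A* was 37.5-fold higher (5.23, SE 0.31, adjusted p = 1.13e-11) and *IL6* 16.7-fold higher (4.06, SE 0.09, adjusted p = 4.92e-18). *CSF3* was 8.20-fold higher (3.04, SE 0.17, adjusted p = 5.44e-12), *IL32* 6.65-fold (2.73, SE 0.09, adjusted p = 1e-15) and *LIF* 1.29-fold (0.37, SE 0.07, adjusted p = 8.14e-05). *CSF1* (-0.91, SE 0.06, adjusted p = 1.39e-10) and *IL11* (-1.94, SE 0.11, adjusted p = 3.06e-12) were lower in H1792. Each line came from its own count table, so line and sequencing table cannot be told apart, and 4 of the genes rest on few counts in A549: the DMSO libraries there held 2 to 33 counts of *CSF3*, *CSF2*, *IL1A* and *IL1B*.

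Scaled by transcript length, as CPM per kilobase of the longest transcript (RPKM), the makeup of the group differed between the lines. A549 DMSO cells had a summed level of 117 ± 2.85 RPKM (SD, n = 4). The order was *CSF1* (40.0 ± 1.65 RPKM), *IL11* (28.5 ± 1.84), *IL32* (23.5 ± 1.98), *LIF* (20.3 ± 1.65) and *IL6* (1.94 ± 0.0829), followed by *CSF2*, *IL1B*, *CSF3* and *IL1A* between 1.04 and 0.283 RPKM. The library ranges of *IL11* and *IL32*, of *IL32* and *LIF*, and of each neighbouring pair among the last 4 overlapped. With AMG900 the sum in A549 was 269 ± 17.6 RPKM and *IL32* came first (96.9 ± 11.6), followed by *CSF1* (72.2 ± 4.01), *IL11* (40.5 ± 5.67), *LIF* (27.9 ± 1.05), *IL6* (9.85 ± 0.594), *CSF3* (9.14 ± 0.501), *IL1B* (7.26 ± 0.598), *CSF2* (3.15 ± 1.26) and *IL1A* (1.85 ± 0.718). Here *IL6* overlapped with *CSF3* and *CSF2* with *IL1A*.

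In H1792 the summed level was 689 ± 2.66 RPKM with DMSO and 1493 ± 42.7 RPKM with AMG900 (SD, n = 3). *CSF2* (251 ± 16.8), *IL1B* (180 ± 18.8) and *IL32* (154 ± 7.76) led with DMSO, *IL1B* and *IL32* with overlapping ranges, followed by *IL6* (32.6 ± 3.00), *LIF* (26.3 ± 0.733), *CSF1* (21.4 ± 0.258), *IL1A* (10.7 ± 2.60), *IL11* (7.45 ± 0.532) and *CSF3* (4.32 ± 0.319). Of the later pairs in this order, *IL1A* and *IL11* overlapped. With AMG900 *CSF2* (552 ± 21.4) and *IL1B* (551 ± 15.5) overlapped at the top, and *IL32* (224 ± 3.60) and *LIF* (51.4 ± 1.73) came next. *IL6* (28.4 ± 0.0679), *IL11* (28.2 ± 1.46) and *CSF1* (27.4 ± 0.756) overlapped in turn, as did *IL1A* (15.4 ± 1.23) and *CSF3* (14.7 ± 0.314) at the end of the order. *CSF3* thus had the lowest mean of the group in H1792 in both conditions, not apart from *IL1A* with AMG900, although it was higher there than in A549. With the union of all annotated exons as the length, *IL32* fell to 41.7 RPKM in A549 AMG900, under *CSF1* at 55.1, and *IL1B* to 296 RPKM in H1792 AMG900, under *CSF2* at 552.

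**Figure D3:**
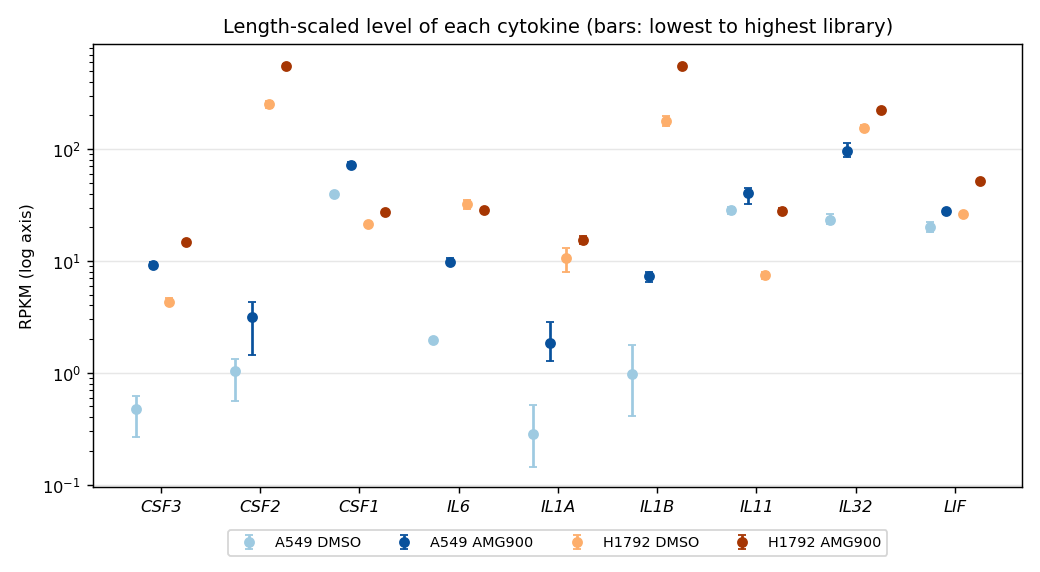
Level of each cytokine per kilobase of its longest transcript (RPKM, log axis) in the 4 groups; points are group means and bars run from the lowest to the highest library. *CSF2* and *IL1B* reach 552 and 551 RPKM in H1792 with AMG900, and no cytokine exceeds 113 RPKM in any A549 library.

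The log2 fold changes of all genes increased with the GC content of the transcript, with a Spearman's rho across genes of 0.49 in A549 (12788 genes, which are not independent replicates) and 0.47 in H1792 (14373 genes). The cytokines span a wide range of this content: *IL1A* has 38.7% GC, at the 11.4 percentile of genes, and *CSF3* 59.9%, *CSF1* 59.2%, *IL32* 58.7%, *LIF* 57.1% and *IL11* 56.3% lie between the 76.0 and 86.1 percentiles. With a spline on GC content in each library, *CSF3* kept a log2 fold change of 3.67 in A549 and 1.47 in H1792 (adjusted p = 2.41e-07 in H1792), and *IL6*, *IL1B* and *CSF2* moved by less than 0.1. *LIF* in A549 went from 0.38 to 0.091, *IL11* from 0.42 to 0.16 and *CSF1* from 0.77 to 0.42, and 7 of the 9 were then called in A549, without *LIF* and *IL11*. *IL1A* moved the other way, from 2.59 to 3.03 in A549 and from 0.53 to 0.96 in H1792. The part of GC content in these changes was not tested further.

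**Figure D4:**
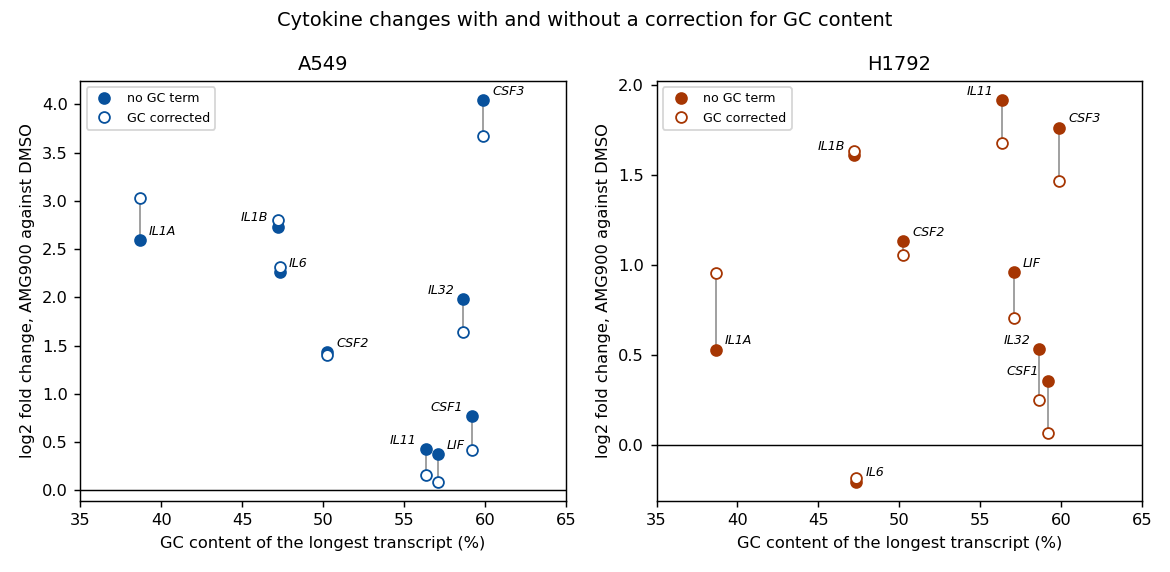
Log2 fold change of each cytokine against the GC content of its longest transcript, in A549 (left) and H1792 (right), without (filled) and with (open) a correction for GC content in each library. The 5 genes with the highest GC content have lower values after the correction, and *IL1A*, at 38.7% GC, has higher ones, with *CSF3* at 3.67 in A549 after it.

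The genes around the cytokines were described by 7 lists with 86 genes in all. In A549 19 of the 59 tested were higher with AMG900 and 9 lower, beside 17.2% and 17.8% of all genes, and in H1792 15 of 71 were higher and 18 lower, beside 16.2% and 18.8%. Without H1792 AMG900 replicate 1, 21 of the list genes passed in H1792 in place of 33. The median log2 fold change over all lists was 0.17 in A549 and 0.0060 in H1792, and the 9 cytokines are not among these genes.

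Receptor transcripts fell or did not pass. *IL6ST*, which encodes gp130, fell in both lines, by 1.52 on the log2 scale in A549 (SE 0.19, adjusted p = 1.61e-05) and by 1.84 in H1792 (SE 0.14, adjusted p = 7.78e-06), from means of 18.6 and 19.1 CPM with DMSO to 6.65 and 5.35 CPM. In H1792 *LIFR*, the LIF receptor chain (-1.56, SE 0.19, adjusted p = 8.2e-05), and *IL1RAP*, the accessory chain of the IL1 receptor (-1.23, SE 0.13, adjusted p = 3.99e-05), fell as well. These were 1 of 6 tested receptors in A549 and 3 of 7 in H1792. Of the receptors of the colony-stimulating factors, *CSF3R*, *CSF1R* and *CSF2RB* had group means of at most 0.54 CPM. *CSF2RA* is listed at 0 in all 14 libraries.

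Among 12 signalling genes, 2 were higher and 3 lower of 11 tested in A549, and 5 of 12 were lower in H1792. *STAT3*, the transcription factor downstream of gp130, rose in A549 (0.46, SE 0.07, adjusted p = 0.00011) and fell in H1792 (-0.22, SE 0.05, adjusted p = 0.00531). *STAT5A* rose in A549 (0.92, SE 0.19, adjusted p = 0.00124). The phosphatase gene *PTPN11* fell in A549 (-0.90, SE 0.09, adjusted p = 1.08e-06) and H1792 (-1.06, SE 0.08, adjusted p = 8.67e-06). *TRAF6*, an adaptor of IL1 signalling, fell in A549 (-0.71, SE 0.18, adjusted p = 0.00391). *JAK1* fell in A549 (-0.38, SE 0.08, adjusted p = 0.000836) and in H1792 (-0.69, SE 0.06, adjusted p = 1.68e-05), and the IL1 receptor kinase *IRAK1* fell in H1792 (-0.24, SE 0.06, adjusted p = 0.00474). With the GC correction *STAT5A* and *TRAF6* were no longer called. Leaving out DMSO replicate 2, 3 or 4 or AMG900 replicate 2 or 4 also ended the call of *TRAF6* (adjusted p between 0.0101 and 0.0148), and leaving out DMSO replicate 3 or any single AMG900 library that of *IRAK1* (adjusted p between 0.0167 and 0.0275). Of the antagonists and feedback inhibitors, *SIGIRR*, an IL1 receptor family member that dampens IL1 signalling, rose in A549 (0.67, SE 0.13, adjusted p = 0.00052) and H1792 (0.40, SE 0.10, adjusted p = 0.00702), in neither line with the GC correction. The STAT feedback inhibitors *SOCS3* (-0.84, SE 0.05, adjusted p = 2.52e-06) and *SOCS1* (-0.35, SE 0.08, adjusted p = 0.005) fell in H1792, while *SOCS3* in A549 was at -0.091 (adjusted p = 0.51). In H1792 the calls of *SIGIRR* (without DMSO replicate 2 or 3 or any AMG900 library, adjusted p between 0.0135 and 0.0387) and *SOCS1* (without DMSO replicate 3 or AMG900 replicate 1 or 2, adjusted p between 0.0248 and 0.0308) were lost when 1 library was left out.

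Of 5 tested genes for the maturation and release of IL1A and IL1B, 4 were higher in A549 and 1, the calpain gene *CAPN2*, was lower. Those higher were *CASP1*, the protease that matures IL1B (2.03, SE 0.33), its adaptor *PYCARD* (1.44, SE 0.30, adjusted p = 0.00105), the pore-forming *GSDMD* (1.08, SE 0.10, adjusted p = 6.37e-07) and *CAPN1*, a calpain, the kind of protease that matures IL1A (0.59, SE 0.07, adjusted p = 9.79e-06). *CASP1* and *PYCARD* were low, with means of 4.75 and 6.43 CPM in treated A549 cells. The A549 DMSO libraries held 3 to 20 counts of *CASP1*. It passed the filter on low counts only with the AMG900 libraries counted, so no p is given for it. In H1792 *CAPN2* fell (-0.44, SE 0.05, adjusted p = 7.67e-05), and *CAPN1* rose by 0.21 (SE 0.06, adjusted p = 0.00938), which turned to -0.095 with the GC correction. The call of *CAPN1* in H1792 was also lost without DMSO replicate 2 or 3 or any single AMG900 library (adjusted p between 0.0143 and 0.045).

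The NF-kB, AP-1 and C/EBP genes were all detected, and 7 of 14 rose and none fell in A549. The NF-kB subunits *RELB* (1.26, SE 0.09, adjusted p = 4.72e-08) and *NFKB2* (1.04, SE 0.11, adjusted p = 3e-06) rose there, with *CEBPD* (0.95, SE 0.13, adjusted p = 3.47e-05) and the AP-1 subunit *JUN* (0.65, SE 0.07, adjusted p = 5.47e-06). In H1792 4 rose and 1 fell. *FOSL1*, another AP-1 subunit (0.94, SE 0.05, adjusted p = 1.19e-06), *JUN* (0.65, SE 0.06, adjusted p = 1.13e-05) and *NFKB2* (0.50, SE 0.06, adjusted p = 0.000134) rose. *FOSL1* was also among the risers in A549 (0.40, SE 0.07, adjusted p = 0.000473). *NFKB1* fell in H1792 (-0.53, SE 0.06, adjusted p = 4.2e-05), but was at 0.043 with the GC correction.

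Of the 10 genes that act on cytokine mRNA stability, *ZC3H12A* (Regnase-1), a nuclease that cuts cytokine mRNAs, rose in A549 (1.69, SE 0.08, adjusted p = 8.9e-10) and in H1792 (0.60, SE 0.06, adjusted p = 2.33e-05). It was the single riser of this list in A549, where 4 fell, among them the AU-rich element binding proteins *HNRNPD* (-0.98, SE 0.13, adjusted p = 2.91e-05) and *KHSRP* (-0.53, SE 0.07, adjusted p = 5.17e-05). *RC3H2* (Roquin-2) fell in both lines (-0.97, SE 0.21, adjusted p = 0.0016, and -0.61, SE 0.10, adjusted p = 0.000594), in neither with the GC correction. In H1792 *ARID5A*, which stabilizes *IL6* mRNA, rose by 0.45 (SE 0.06, adjusted p = 0.000206), not with the GC correction, and *ZFP36L2*, which promotes decay of AU-rich mRNAs, fell by 0.43 (SE 0.11, adjusted p = 0.00652). The call of *ZFP36L2* was lost without DMSO replicate 2 or 3 or any single AMG900 library (adjusted p between 0.0173 and 0.0337).

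Of 26 other secreted cytokines only 7 were tested in A549 and 15 in H1792, the rest having too few counts. In A549 *IL23A* (3.04, SE 0.36), *EBI3*, a subunit of heterodimeric cytokines (1.93, SE 0.14, adjusted p = 5.35e-08), *FLT3LG* (0.98, SE 0.23, adjusted p = 0.00332) and *IL18*, another substrate of caspase-1 (0.92, SE 0.10, adjusted p = 3.17e-06), rose and none fell. The *IL23A* value rests on few counts, 2 to 8 per A549 DMSO library against 37 to 66 with AMG900. As *IL23A* passed the filter on low counts only with the AMG900 libraries counted, no p is given for it. In H1792 *IL24* (1.03, SE 0.14, adjusted p = 0.000207) and *CTF1*, a gp130 ligand (0.72, SE 0.15, adjusted p = 0.00286), were among the 5 that rose, and *KITLG*, the ligand of KIT (-1.99, SE 0.35, adjusted p = 0.001), and *IL7* (-0.76, SE 0.17, adjusted p = 0.00331) fell. *FLT3LG* (0.68, SE 0.09, adjusted p = 0.00012) and *IL23A* (1.79, SE 0.45) also rose in H1792. *IL23A* had 7 to 22 counts per DMSO library there and again passed the filter only with the AMG900 libraries counted. The H1792 values of *FLT3LG* and *IL23A* were not followed over the alternatives. *FLT3LG* in A549 and *CTF1* and *IL7* in H1792 were not called with the GC correction. Nor was *FLT3LG* called in A549 without DMSO replicate 2 or AMG900 replicate 1 or 2 (adjusted p between 0.0111 and 0.0125), *CTF1* in H1792 without DMSO replicate 3 or AMG900 replicate 1 or 3 (adjusted p between 0.014 and 0.019), or *IL7* in H1792 without AMG900 replicate 1 or 2 (adjusted p between 0.0165 and 0.0174). *TNF* and *MIF* are listed at 0 in all 14 libraries, as is the receptor gene *CSF2RA*. *MIF* is known as a widely expressed gene, and how reads of overlapping or repeated genes were counted is not given in the sources used here, so a 0 here is not read as a lack of expression.

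**Figure D5:**
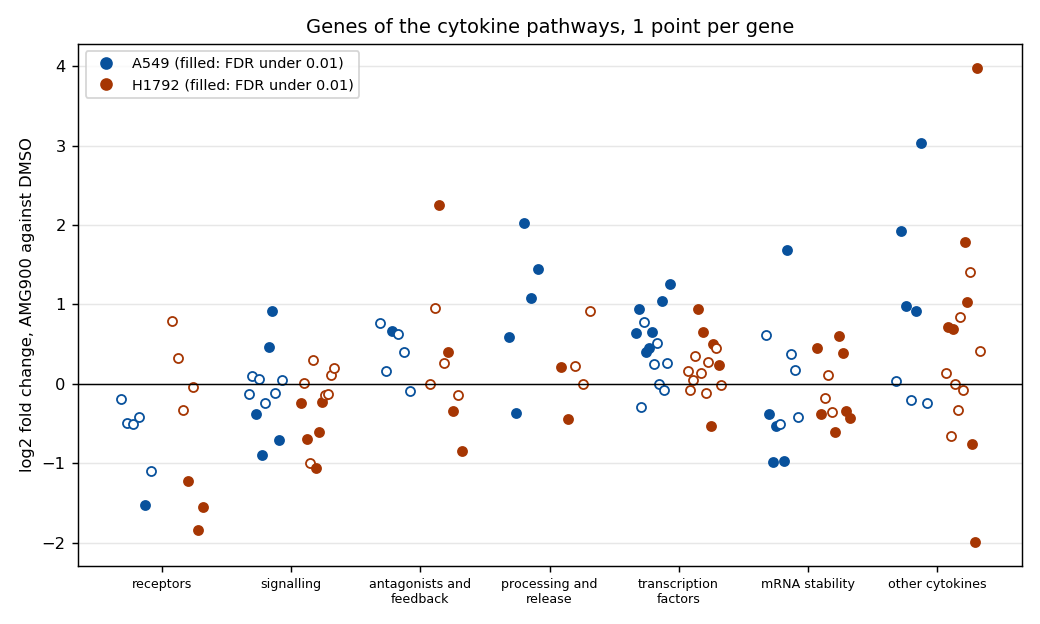
Log2 fold change with AMG900 of the genes tested in each of the 7 lists, A549 in blue and H1792 in orange-brown; each point is a gene and filled points passed an FDR of 0.01. No receptor gene passed above 0, and 7 of 14 transcription factor genes passed above 0 in A549.

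The genes whose log2 CPM over the 14 libraries was most like that of *CSF3*, among 14769 genes, were *TGM2* (Pearson's r 0.99), *TMEM9* (0.99), *PLCD1* (0.99), *G6PC3* (0.98) and *PPP2R5B* (0.98). The libraries share their line and treatment, so these values describe the order of the 4 groups. *TGM2*, for example, had means of 1032 and 1702 CPM in A549 with DMSO and AMG900 and 1580 and 1772 CPM in H1792. Within the group, *IL32* was the most like *CSF3* (0.91), followed by *IL6* (0.83), *LIF* (0.82), *IL1A* (0.80), *IL1B* (0.75) and *CSF2* (0.63). *IL11* (0.052) and *CSF1* (0.036), the cytokines with the lower level in H1792 DMSO, had no such relation over the 14 libraries pooled. Within each line, their AMG900 libraries were all above the DMSO libraries, as were those of *CSF3*.

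Neighbouring protein-coding genes, chosen by position, were described in the same fits. Of 16 neighbours 6 were tested in A549, with 1 higher and 2 lower, and 11 in H1792, with 3 higher and none lower, beside 17.2% higher and 17.8% lower over all genes in A549 and 16.2% and 18.8% in H1792. These are too few genes to set against those shares. *MED24*, 1.28 kb from *CSF3*, was at -0.032 in A549 (SE 0.07, adjusted p = 0.737) and at 0.10 in H1792 (SE 0.06, adjusted p = 0.141). *CKAP2L*, a mitotic spindle gene 9.26 kb from *IL1A*, fell by 3.94 in A549 (SE 0.23, adjusted p = 6.21e-09) and was at -0.084 in H1792 (adjusted p = 0.56). *OSM*, the gp130 ligand 16.1 kb from *LIF*, is among the 3 counted as higher in H1792 (3.98, SE 0.70). It had 12 to 18 counts per AMG900 library against at most 1 with DMSO. As it passed the filter on low counts only with the AMG900 libraries counted, no p is given for it.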

How the data were processed

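Total RNA of A549 and H1792 cells was sequenced (Illumina). The authors deposited raw counts per gene symbol, without normalization, in 1 table per line. The submitters' processing notes name STAR, HTSeq and hg19/GRCh37. Versions, annotation and strand setting are not given in the sources used here. For H1792, 28 entries with dates for names (0.101 to 0.117% of counts) were left out.

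Counts were analysed in R 4.3.3 with edgeR 4.0.16 (filterByExpr, TMM, quasi-likelihood test, Benjamini-Hochberg adjustment, FDR 0.01), per line for AMG900 against DMSO and over 14 libraries between lines. DESeq2 (1.42.0), which the study names for its own gene lists, was an alternative. The SE is the log2 fold change divided by the square root of F. Lengths and GC content came from GENCODE on GRCh37, which matched 22365 names directly and 1250 by an older symbol, of 26760. Same-group libraries differed beyond sampling noise (chi-square per gene 3.32 to 48.3). The biological coefficient of variation was 12.8% in A549 and 9.60% in H1792. On simulated data, 92.3%, 91.5% and 94.3% of genes changed 2-fold (log2 change of 1) were recovered in A549 (13226 genes), H1792 (15043) and between lines (14307). Unlike these data, the simulation had the same spread for every gene, few changed genes and no trend with GC content. Recovery at counts as low as those of *CSF2* and *IL1A* in A549 was not tested separately. These shares are therefore not read for them.

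The cytokines and lists were chosen with earlier results of these data known. Named list genes are, per list and line, up to 4 with the largest change among those called with a mean of at least 1 CPM, and the 5 genes most like *CSF3*. Genes outside this rule (neighbours, markers, genes at 0, low receptors, *SOCS3*, *CAPN2*, *JAK1* and *FOSL1* in A549, *STAT3*, *FLT3LG* and *IL23A* in H1792) were chosen by position or after their values were seen. Some list genes are counted with their list and not reported here by name. The 3′ UTR elements were added later. Alternatives were DESeq2, its size factors, total counts, no filter, a minimum of 10 counts in all libraries, a block for replicate number, GC correction (spline with 5 degrees of freedom), FDR 0.05, exon-union length and each library left out.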

Additional observations from a re-analysis of the deposited data

Results flagged for a closer look

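*IL6* was flagged because every AMG900 library lay above every DMSO library in A549 and below in H1792. Its log2 fold change in H1792 minus that in A549 was -2.53 (SE 0.12). As this difference contains the contrast that chose the group, it was not tested.

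Of all 67 list genes tested in both lines together, 21 had a different response in the lines (interaction of line and AMG900, edgeR quasi-likelihood test, FDR 0.01), 18 with a lower and 3 with a higher value in H1792, where 14.5% of all genes had such a difference. Among them are 18 of the 37 genes named, which were picked for large changes within a line, so their share is not set against that of all genes. Each value here is the H1792 log2 fold change minus the A549 one. Among signalling and feedback genes it was -1.13 for *STAT5A*, -0.83 for *SOCS3*, -0.76 for *STAT3* and -0.39 for *JAK1*. Among genes of IL1A and IL1B maturation and release it was -1.88 for *CASP1*, -1.15 for *GSDMD* and -0.45 for *CAPN1*. Among transcription factors it was -1.35 for *RELB*, -1.10 for *CEBPD*, -0.62 for *NFKB2*, -0.60 for *NFKB1* and 0.47 for *FOSL1*. Among genes of mRNA stability it was -1.16 for *ZC3H12A*, 0.72 for *HNRNPD* and 0.56 for *KHSRP*. Among other cytokines it was -2.63 for *EBI3*, -1.82 for *KITLG* and -1.07 for *IL18*. The *EBI3* value has an SE of 0.58 and depends on a single H1792 DMSO library, at 4.04 CPM beside 0.671 and 0.690 CPM. In H1792 alone *EBI3* was not called (-0.66, SE 0.60), and the difference was not fitted again without that library. Adjusted p ranged from 1.31e-07 for *RELB* to 0.00798 for *KITLG*. *IL6ST*, which fell in both lines, had a difference of -0.40 (adjusted p = 0.265).

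In 18 groups of 4 A549 libraries, 1 for each cytokine and treatment, no library stood apart from the others by Dixon's criterion. With 4 values it flags only an extreme library, and H1792 was not examined. Over all genes, A549 DMSO replicate 1 had a chi-square per gene of 13.8 to 16.6 against the other DMSO libraries. Those were at 3.32 to 4.75 among themselves. In H1792, DMSO replicate 1 had 48.3 and 22.7 against the other DMSO libraries, which were at 14.8 with each other. The H1792 AMG900 libraries were at 6.13 to 25.0. This value grows with depth, so it is not compared between the lines.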

How the results depend on the processing

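No cytokine changed sign in A549, in H1792 or between lines under any alternative. With at least 10 counts required in every library, *CSF3*, *CSF2*, *IL1A* and *IL1B* dropped out, so 5 cytokines were called in A549, 5 between lines (3 higher, 2 lower in H1792), and 3 had the larger change in A549 in place of 7. With the GC correction, *CAPN1* and *NFKB1* in H1792 reversed to -0.095 and 0.043, and to -0.094 and 0.044 with the replicate block added. With each library left out, 7 to 9 cytokines were called in A549, 7 to 9 in H1792 and 9 to 9 between lines, and 25 to 36 list genes in A549, 21 to 38 in H1792 (lowest without AMG900 replicate 1) and 45 to 54 between lines. In A549, *CSF2* was not called in 6 of these 8 fits (all but those without replicate 1 of either group), and *IL11* not without DMSO replicate 3, AMG900 replicate 2 or AMG900 replicate 4, nor with total counts. Same replicate numbers did not pair libraries (correlations of deviations -0.039 to 0.013 in A549 and -0.060 to 0.043 in H1792), and only H1792 replicate 2 correlated best with its own number. With a replicate block 9 cytokines were called in A549, 8 in H1792 and 9 between lines, and 28, 28 and 47 list genes. *IL1A* in H1792 was gained (0.55, adjusted p = 0.00677), and among named genes *TRAF6*, *IRAK1* and *CAPN1* were lost. With exon-union length 7 of 9 cytokines kept their place in the order of RPKM summed over the 14 libraries, and 7 of 9 within each of the 4 groups. Depth limits *CSF3*, *CSF2*, *IL1A* and *IL1B* in A549 DMSO libraries, where they had 2 to 33 counts. The list gene *IL23A* had 2 to 8 counts in these libraries.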
